A study of Mus musculus with 4 samples.

Results

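The cells described here carry transcripts of Pdgfrb, the receptor for platelet-derived growth factor B that marks pericytes and vascular smooth muscle cells. They were selected on raw transcript counts in neonatal mouse brain. A cell was a member when it held at least 20 gene counts, at least 4 counts of Pdgfrb, fewer than 5 of Cldn5 (an endothelial tight junction gene), fewer than 2 of Wnt5a, fewer than 3 of Csf1r (a microglial receptor gene) and fewer than 5 of Pdgfra (a gene of oligodendrocyte precursors and fibroblasts). The rule found 10237 cells among the 794833 cells that held at least 20 counts, which is 1.29% of them, out of 863580 segmented cells in all. These are called gated cells below. The rule itself fixes the counts of Pdgfrb, Cldn5, Wnt5a, Csf1r and Pdgfra, so those are given as descriptions only.

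All mice were at postnatal day 5. Right-sided whiskers had been lesioned 24 h earlier, at postnatal day 4, and every animal in the samples was lesioned. Coronal sections of 10 µm that held the barrel cortex were imaged by MERFISH, which reads barcoded transcripts of a chosen panel in place, here 140 genes and 40 blank barcodes that match no probe. A coverslip held 2 sections, 1 of a wild-type and 1 of a Cx3cl1(-/-) mouse. The 4 coverslips were male (coverslips 1 and 2) or female (coverslips 3 and 4). The knockout lacks Cx3cl1, the gene of the chemokine fractalkine. The columns used here name no genotype, hemisphere, region or cell type, so every value pools both genotypes and both sides of the brain, and a coverslip is 1 replicate. Whole coronal sections were imaged although the tissue label reads barrel cortex.

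Mural cells wrap the endothelial tube of blood vessels: pericytes lie on capillaries, and smooth muscle cells on arteries and veins. Platelet-derived growth factor B from endothelium recruits them through Pdgfrb, and they share the vascular basement membrane with it. In the developing brain, endothelial cells need Wnt ligands of the Wnt7 family, read by Frizzled receptors with the cofactors Adgra2 and Reck, to grow into the tissue and to form the blood-brain barrier.

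Kept cells held a median of 161, 162, 185 and 273 gene counts on coverslips 1 to 4. Blank barcodes made up 1.16% to 1.48% of all counts. The gated cells numbered 2753, 1867, 2242 and 3375 on coverslips 1 to 4, and their share of kept cells was 1.29% ± 0.283 (SD, n = 4 coverslips). Among the 8 sections, separated by position alone, the share ran from 0.880% to 1.65%. Intervals of counting error are not given, since the spread over coverslips is the error used throughout.

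The label of mural cells did not hold for all members. Cspg4, which encodes the pericyte proteoglycan NG2 and is also made by oligodendrocyte precursors, was read with 2.85, 3.42, 3.75 and 4.02 counts per gated cell on coverslips 1 to 4. In endothelial cells, defined as cells with at least 8 counts of Cldn5, at least 1 of Pecam1 and fewer than 4 of Pdgfrb, Cspg4 stood at 0.343, 0.271, 0.431 and 0.465. The groups did not overlap, and the gated cells were higher on each coverslip. Slc1a3, the astrocyte glutamate transporter GLAST, was however read with 10.7, 6.91, 12.6 and 14.6 counts per gated cell. In the endothelial cells Slc1a3 stood at 2.27, 1.80, 2.21 and 2.10. Both a pericyte gene and an astrocyte gene were thus higher in gated cells than in endothelial cells.

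Astrocyte genes were not read evenly across the members. The on-panel astrocyte list has 5 genes: Slc1a3, the water channel gene Aqp4, the filament gene Gfap, the folate enzyme gene Aldh1l1 and the transcription factor gene Sox9. In 5018 of the 10237 gated cells these summed to at least 10 counts, which was 47.1% ± 10.9 of the gated cells (SD, n = 4), from 32.6% on coverslip 2 to 58.9% on coverslip 4. The share at or above that sum was 17.7% to 26.4% in endothelial cells and 17.7% to 25.5% in all other kept cells. The share of gated cells near the limit, with 8 to 11 such counts, was 4.29% to 5.04%. The sum of 10 was chosen after the values had been seen, and these shares carry no test. Gated cells at or above it held a median of 216 to 353 gene counts and those below it 86 to 135. Depth thus differed across this limit, which is a raw count. The gated cells are therefore called by their rule and not by a cell type name.

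The Pdgfrb count ordered the members. At 4 or 5 Pdgfrb counts, which held 36.4% to 49.1% of the gated cells per coverslip, Cspg4 was read 0.525 to 0.899 times per cell and 61.2% to 80.4% of cells had at least 10 astrocyte-list counts. At 12 or more Pdgfrb counts, which held 2580 cells, Cspg4 was read with 8.24, 6.82, 10.1 and 11.9 counts per cell on coverslips 1 to 4. In those cells Slc1a3 stood at 1.74, 1.68, 2.23 and 2.02, and 12.2% to 18.4% had at least 10 astrocyte-list counts. Vim, the filament gene vimentin named as a marker of these cells, was read with 5.83, 6.70, 6.57 and 9.98 counts per cell there, against 3.77, 5.23, 5.07 and 7.01 over all gated cells. Endothelial cells held more Vim than either, with 9.32, 10.5, 10.2 and 15.1 counts, so Vim did not set gated cells apart from endothelium. Median gene counts were 163 to 333 at 4 or 5 Pdgfrb counts and 120 to 172 at 12 or more, so these levels per cell compare unlike depths.

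**Figure D1:**
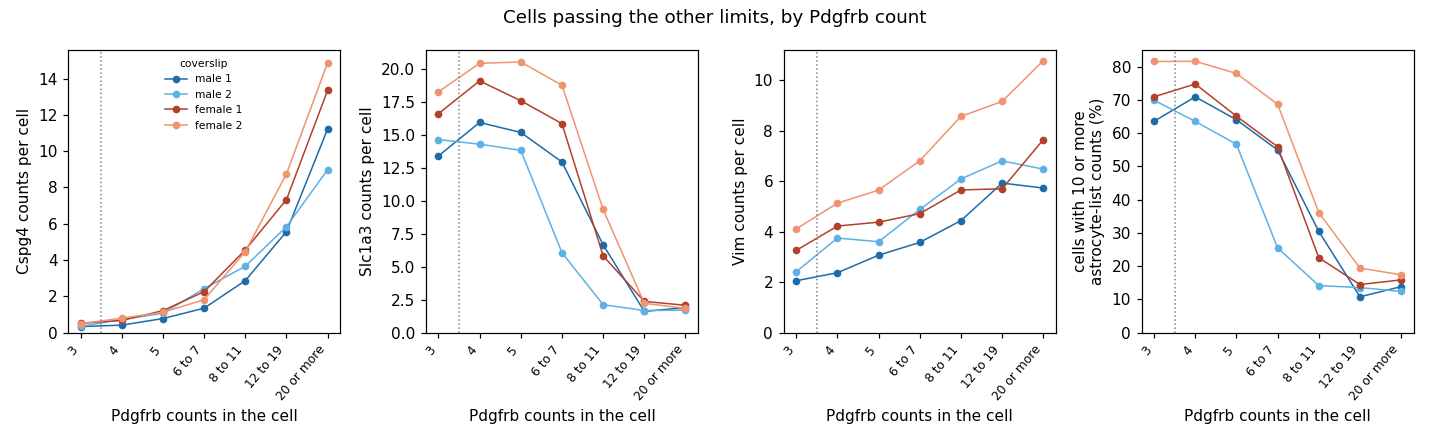
Mean counts per cell of Cspg4, Slc1a3 and Vim, and the percentage of cells with 10 or more astrocyte-list counts, in cells that pass the other limits of the rule, by their Pdgfrb count; each line is 1 coverslip (n = 4), and the dotted line marks the limit of 4 Pdgfrb counts. Cspg4 reaches 6.82 to 11.9 counts per cell at 12 or more Pdgfrb counts, where Slc1a3 is at 1.68 to 2.23.

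The astrocyte-list share did not mark the limit of 4 itself. Cells just outside it, with 3 Pdgfrb counts, numbered 6830, and 63.6% to 81.6% of them had at least 10 astrocyte-list counts. Cells just inside, with 4 counts, numbered 3111, and 63.5% to 81.6% of them did. Meg3, a neuron marker, did differ, with 17.8, 19.9, 34.2 and 44.6 counts per cell at 3 Pdgfrb counts on coverslips 1 to 4. At 4 Pdgfrb counts it stood at 8.62, 11.1, 20.2 and 25.1. The other limits removed many cells. Of 25983 kept cells with at least 4 Pdgfrb counts, 12440 had 5 or more counts of Cldn5, 5496 had 2 or more of Wnt5a, 2667 had 5 or more of Pdgfra and 992 had 3 or more of Csf1r, with overlaps among them.

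Because of this mixture, each comparison was repeated on the cells with at least 12 Pdgfrb counts and on cells with fewer than 10 astrocyte-list counts, both chosen after seeing the data. The Pdgfrb limit was applied to the Wnt5a-positive cells as well, and in the gene comparisons the astrocyte-list limit was applied to both populations. Counts were summed per coverslip and population and compared per summed cell volume with edgeR's quasi-likelihood fit, with coverslip as a block. Against endothelial cells and against Wnt5a-positive cells a gene was called when its difference exceeded 2-fold at a Benjamini-Hochberg adjusted p of 0.05, and when, in the population with more of it, each coverslip read it more often than any blank. The 6 genes of the gates were left out, so 134 genes were tested. Less RNA of a gene per cell and fewer cells carrying it cannot be told apart in such sums.

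Against endothelial cells, 27 of 134 genes were higher in gated cells (20.1%) and 8 were lower (5.97%), and the median log2 difference over all tested genes was 0.35. Scaled by library totals in place of volume, 19 were higher and 14 lower, and the median was -0.11. Cspg4 had the lowest p, at 8.84-fold higher (log2 difference 3.14 ± 0.15 SE, adjusted p = 1.05e-41 by edgeR, higher on 4 of 4 coverslips). With the members limited to 12 or more Pdgfrb counts its log2 difference was 4.56. At 12 or more Pdgfrb counts 12 genes were higher (8.96%), 8 of them among the 27, and 7 were lower (5.22%), 5 of them among the 8. With fewer than 10 astrocyte-list counts in both populations 11 genes were higher (8.21%), 7 of them among the 27, and 7 were lower (5.22%), 6 of them among the 8.

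Cspg4, Daam2, Sdc2, Gpc6, Gpc4, Ptk7 and Slc9a3r1 were called higher over all members and under both limits. Sfrp2 was called over all members and at 12 or more Pdgfrb counts only. Daam2, a formin that acts in Wnt signalling, was read with 2.83, 3.09, 4.13 and 5.92 counts per gated cell and 0.509, 0.578, 0.605 and 0.786 per endothelial cell. It was 5.87-fold higher in gated cells (adjusted p = 1.35e-25 by edgeR), and its log2 difference was 2.55 over all members and 2.35 at 12 or more Pdgfrb counts. Daam2 stood apart from Cspg4 in one respect: its level was higher in the members with at least 10 astrocyte-list counts, at 4.48 to 7.91 per cell, than in those below, at 1.30 to 3.07. Median gene counts were 216 to 353 in the former and 86 to 135 in the latter, so these levels of Daam2 compare unlike depths. Sdc2, the heparan sulfate proteoglycan syndecan-2, was read with 0.825, 1.48, 1.28 and 1.70 counts per gated cell against 0.312, 0.316, 0.306 and 0.421 in endothelium, with log2 differences of 1.83 and 2.66.

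Ligands and their handling came next. Of 16 Wnt ligands tested, 2 were higher in gated cells and none was lower, with a list median of 0.35, the same as over all genes. Those were Wnt7a and Wnt7b, ligands that act on brain endothelium. Wnt7a was 4.71-fold higher over all members (log2 2.24 ± 0.13 SE, adjusted p = 1.62e-19 by edgeR), but its log2 difference at 12 or more Pdgfrb counts was -0.09. Its level was 0.859 to 1.97 counts per cell in members with at least 10 astrocyte-list counts and 0.052 to 0.177 in those below, again at unlike depths. Wnt5b, a ligand of the Wnt5 class, was called at 12 or more Pdgfrb counts with a log2 difference of 1.98, against 1.22 and no call over all members. With fewer than 10 astrocyte-list counts none of the 16 ligands was called: Wnt5b had a log2 difference of 1.90 there (adjusted p = 0.000205 by edgeR), but at 0.302 counts per cell it did not exceed every blank on coverslip 1. Wls, the carrier that takes Wnt ligands to the cell surface, was called under both limits, at 1.68 and 1.41, against 0.65 and no call over all members. Wls stood at 1.42, 1.49, 1.5 and 1.85 counts per cell at 12 or more Pdgfrb counts, and at 0.523, 0.418, 0.443 and 0.497 in endothelium.

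Among the 10 Frizzled receptors, 3 were higher (Fzd2, Fzd7 and Fzd9) and 2 were lower (Fzd4 and Fzd6), with a list median of 0.91. Fzd2 was 5.29-fold higher over all members, with 0.898, 0.396, 1.03 and 1.18 counts per cell against 0.152, 0.107, 0.172 and 0.158. In cells with 12 or more Pdgfrb counts Fzd2 stood at 0.248, 0.100, 0.218 and 0.251, its log2 difference was 0.40 and it was not called. Fzd7 and Fzd9 were not called there either, at 0.85 and -0.43. None of the 10 receptors was called higher under either limit; 2 were lower at 12 or more Pdgfrb counts, Fzd4 and Fzd1, with a list median of -0.28, and 2 with fewer than 10 astrocyte-list counts, Fzd4 and Fzd6, with a median of 0.25. Fzd4, the receptor through which norrin and Wnt7 ligands act on brain vessels, was lower with 0.403, 0.399, 0.358 and 0.437 counts per gated cell against 1.24, 1.55, 1.38 and 1.74. Its log2 difference was -1.97 over all members and -1.80 at 12 or more Pdgfrb counts, called in both. Fzd6 was at -2.20 over all members, but at -1.13 and not called at 12 or more Pdgfrb counts.

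Of 8 co-receptors and cofactors, 1 was higher (Ptk7, a planar polarity receptor) and 1 was lower (Adgra2), with a median of 0.21. Adgra2, the receptor that works with Reck in Wnt7 sensing, was 2.39-fold lower over all members (adjusted p = 0.0336 by edgeR). Its level at 12 or more Pdgfrb counts was 3.40, 3.72, 4.61 and 5.38 per cell, against 4.44, 3.71, 4.70 and 5.56 in endothelium, and the log2 difference of -0.16 was not called. Ror1, a receptor for Wnt5 ligands, was called at 12 or more Pdgfrb counts with a log2 difference of 1.72 and not over all members, at 0.84. With fewer than 10 astrocyte-list counts Ror1 was at 1.56 (adjusted p = 0.00112 by edgeR) and was not called, since it did not exceed every blank on coverslip 1.

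The list of endothelial Wnt target and barrier genes had 6 of 9 members lower and none higher, with a median of -1.97. Lef1, a transcription factor gene that is itself a Wnt target, was read with 0.384, 0.450, 0.502 and 0.726 counts per gated cell and 2.85, 2.64, 2.88 and 4.51 per endothelial cell. It was 6.68-fold lower (log2 -2.74 ± 0.15 SE, adjusted p = 8.74e-30 by edgeR), and the groups did not overlap. Sox7, an endothelial transcription factor gene, was 5.37-fold lower, with 0.302, 0.283, 0.614 and 0.644 counts against 2.17, 1.66, 2.06 and 2.95. Tcf7, Fzd4, Fzd6 and Adgra2 were the others. Limited to 12 or more Pdgfrb counts, 4 of the 9 were called lower (Lef1, Sox7, Tcf7 and Fzd4) against 5.22% of all genes, and the list median was -1.13 against -0.24 over all genes. With fewer than 10 astrocyte-list counts 5 were lower, these and Fzd6. Id1, a gene induced by bone morphogenetic protein signalling and not on this list, was lower at log2 differences of -2.21 and -2.45.

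Glypicans and syndecans, the surface proteoglycans that bind Wnt ligands, had 5 of 10 members higher and none lower, with a median of 1.36. Those were Gpc4, Gpc5, Gpc6, Sdc2 and Sdc4. With 12 or more Pdgfrb counts, 4 were called higher with a median of 0.26: Gpc3 joined Gpc4, Gpc6 and Sdc2, while Gpc5 stood at -0.63 and Sdc4 at 0.10 without a call. Of 7 secreted Wnt antagonists, 3 were higher (Sfrp1, Sfrp2 and Sfrp5), with a median of 1.26. Sfrp2 alone of these was called at 12 or more Pdgfrb counts, at a log2 difference of 2.59. None of the 7 was called with fewer than 10 astrocyte-list counts, where Sfrp2 was at 2.24 but did not exceed every blank on coverslip 1.

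The astrocyte list had 4 of 5 members higher over all members, with a median of 1.75, and none called at 12 or more Pdgfrb counts, with a median of -0.50. Slc1a3 moved from 2.28 to -0.18, and Sox9 from 1.92 to -0.43. Per cell, the 5 astrocyte genes summed to 18.1 to 44.7 counts in gated cells and to 7.34 to 10.2 in endothelial cells, all 5 stood above the blanks in both, and none was at 0. Their part in the other differences was addressed only through these limits. None of the 9 microglia and macrophage genes and none of the 3 oligodendrocyte lineage genes was called, with medians of -0.61 and -0.30, and 1 of 11 neuron genes was higher. The 11 neuron genes summed to 12.7 to 25.8 counts per gated cell and 6.39 to 13.3 per endothelial cell. In members with fewer than 10 astrocyte-list counts they summed to 12.9 to 31.7, against 8.84 to 16.1 for Cspg4 and Vim together. At 12 or more Pdgfrb counts these sums were 10.7 to 18.0 and 13.5 to 21.9. Neuron transcripts thus remained under both limits, and their source was not tested.

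**Figure D2:**
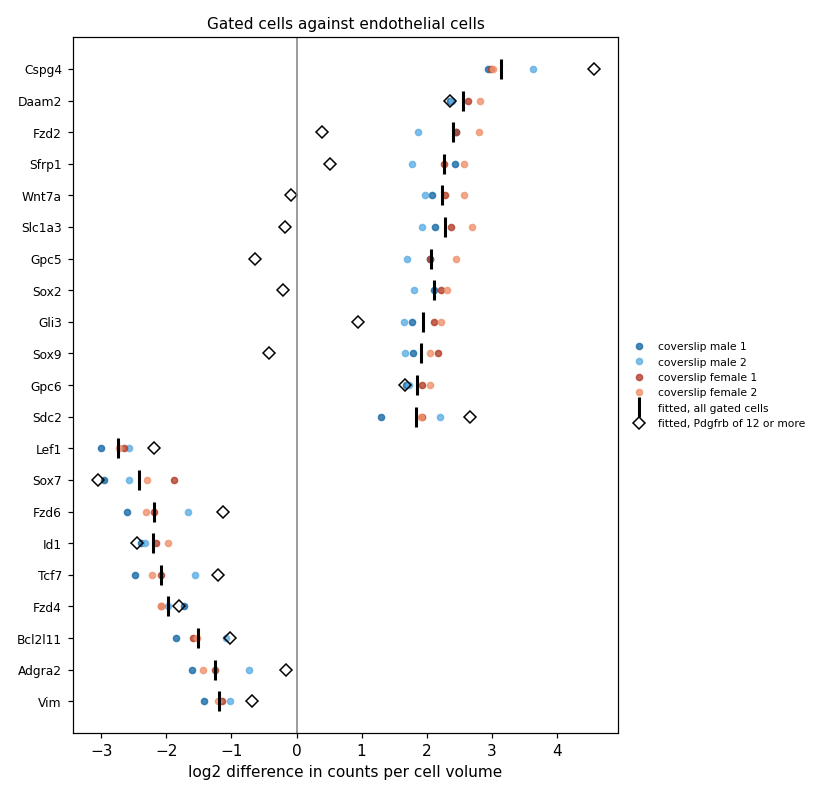
Log2 difference in counts per cell volume, gated minus endothelial cells, for the 12 higher and 8 lower called genes with the lowest p, and for Vim, which was not called; dots are coverslips (n = 4), bars the fitted value over all members and diamonds the fitted value at 12 or more Pdgfrb counts. Diamonds for Cspg4 and Sdc2 lie at 4.56 and 2.66, and those for Slc1a3, Sox9 and Gpc5 lie below 0.

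Gated cells were next compared with 2248 Wnt5a-positive Pdgfrb cells, which met the same Pdgfrb, Cldn5 and Csf1r limits but held at least 2 Wnt5a counts, with no limit on Pdgfra. None of 134 genes was higher in gated cells (0.0%) and 19 were lower (14.2%) by edgeR's test, while 97 genes differed from equality at an unadjusted p of 0.05. DESeq2 called 2 higher and 10 lower, and TMM factors gave 4 higher and 12 lower. The median log2 difference was -0.29 over all tested genes. The share with at least 10 astrocyte-list counts was 50.3% to 67.0% in the Wnt5a-positive cells, so those cells were mixed as well.

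The lower genes included 3 of 16 Wnt ligands, beside 14.2% of all tested genes. The list median was -0.45, against -0.29 over all tested genes. Wnt4 was read with 0.383, 0.334, 0.357 and 0.446 counts per gated cell and with 4.21, 3.73, 4.33 and 4.32 per Wnt5a-positive cell. It was 10.3-fold lower in gated cells (log2 -3.37 ± 0.12 SE, adjusted p = 4.1e-28 by edgeR, lower on 4 of 4 coverslips). Wnt6 and Wnt2b were lower at log2 differences of -2.62 and -2.24. Wnt4 and Wnt2b were, in cells with 12 or more Pdgfrb counts, again called, at -2.98 and -2.22. Col4a6, which encodes a basement membrane collagen chain, was read with 0.215, 0.129, 0.261 and 0.224 counts against 2.09, 1.58, 2.31 and 1.67, and was 8.81-fold lower.

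Co-receptors and cofactors were the list with the most members lower, 5 of 8, with a median of -1.37. They were Ror2, Ror1, Ptk7, Reck and Adgra2. Ror2, a receptor for Wnt5a, stood at 0.596, 0.327, 0.388 and 0.428 counts against 1.93, 1.49, 1.79 and 1.75, and its log2 difference was -1.94 over all members and -2.02 at 12 or more Pdgfrb counts. Of these 5, Ror2 alone was called at 12 or more Pdgfrb counts, where Adgra2 was at -0.57 and 8.21% of all genes were lower, and Ror2 and Reck were with fewer than 10 astrocyte-list counts, where 11.9% were. Lyve1 and Mrc1, genes of border macrophages, were lower by 1.57 and 1.74 on the log2 scale, as was Tmem119, a microglial gene, by 2.72; 3 of 9 microglia and macrophage genes were lower. Under each of the limits Tmem119 alone of the 9 was called, and Mrc1 and Lyve1 lost their calls. Cspg4 was higher on 4 of 4 coverslips at a log2 difference of 0.98, which did not exceed 2-fold (adjusted p = 1 by edgeR).

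**Figure D3:**
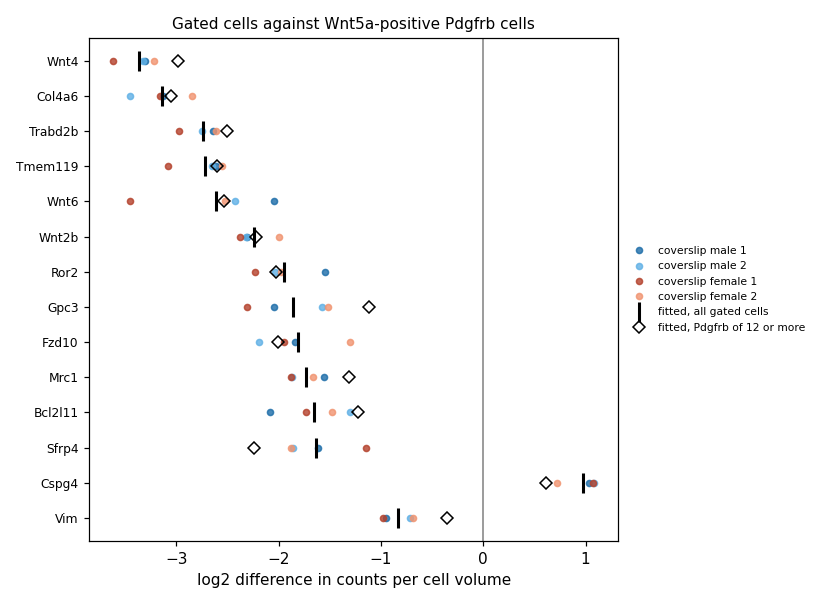
Log2 difference in counts per cell volume, gated minus Wnt5a-positive Pdgfrb cells, for the 12 called genes with the lowest p and for Cspg4 and Vim, which were not called; dots are coverslips (n = 4), bars the fitted value over all members and diamonds the fitted value at 12 or more Pdgfrb counts. Every coverslip lies below 0 for the 12 called genes and above 0 for Cspg4.

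Position was measured from cell centre to the nearest endothelial cell, in the coordinate units of the files, whose length is not stated. The median distance of gated cells was 47.7, 31.7, 39 and 34.1 units on coverslips 1 to 4, against 52.5, 50.3, 50.1 and 44.8 in all other kept cells. Gated cells were nearer by a mean of 11.3 units (-11.3 ± 5.67 SD, n = 4, lower on 4 of 4), with an exact sign-flip permutation p of 0.13, two-sided, which is the smallest that 4 coverslips allow. The rule bears on this distance, since it removes cells with 5 or more Cldn5 counts. Limited to members without any Cldn5 count the difference was -2.50, lower on 3 of 4 coverslips, and as a difference of means it was -5.59, also on 3 of 4. At 12 or more Pdgfrb counts it was -23.1, with medians of 34.2, 20.4, 28.9 and 21.8 units.

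**Figure D4:**
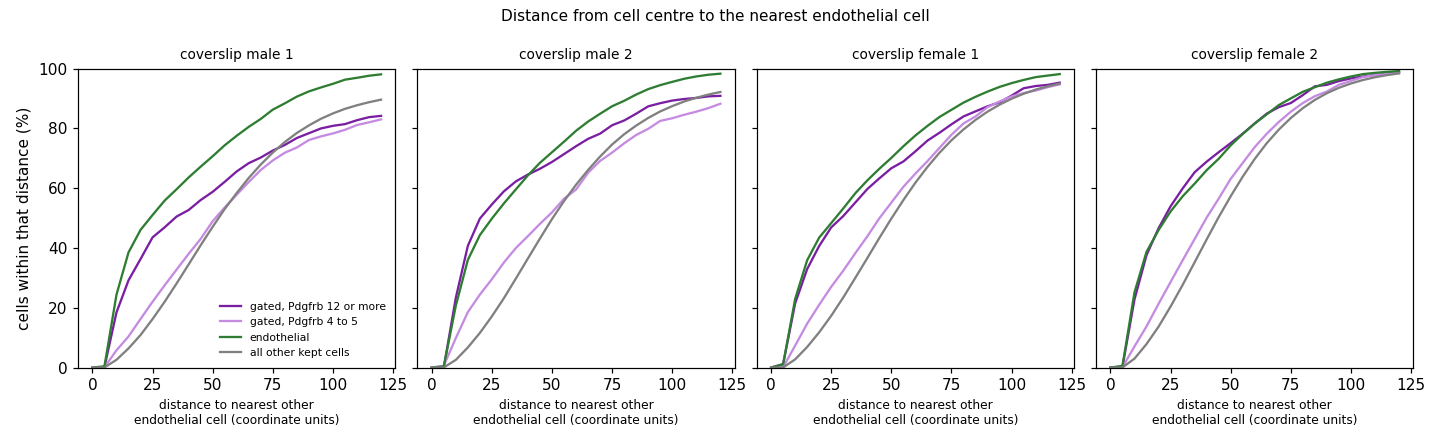
Cumulative percentage of cells by distance from cell centre to the nearest other endothelial cell, in coordinate units, in 1 panel per coverslip, for gated cells at 12 or more and at 4 or 5 Pdgfrb counts, endothelial cells and all other kept cells. Within 20 units lay 36.3% to 49.8% of the gated cells at 12 or more Pdgfrb counts and 10.9% to 13.7% of all other kept cells.

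The median distance to the tissue edge depended on how the edge was drawn. With squares of side 100 the difference, gated minus Wnt5a-positive cells, was 53.0 ± 222 units (SD, n = 4, exact sign-flip permutation p = 0.625, lower on 1 of 4), and without coverslip 3 it was -20.8. With squares of side 50 it was 58.4 ± 31.8 units (SD, n = 4), with gated cells farther from the edge on 4 of 4 coverslips. The exact permutation p was 0.13, the smallest that 4 allow. The limit on cells changed along with the side: edge squares held fewer than 4 cells at side 100 and no cells at side 50. Gated cells had a mean median distance of 806 units with side 100 and 295 with side 50, so the squares did not mark the same boundary. Whether the smaller squares lay at the outer edge or in gaps inside the tissue was not tested. Within 100 units of the edge lay 2.55% to 3.89% of gated cells, 10.7% to 15.8% of Wnt5a-positive cells, 4.80% to 6.19% of endothelial cells and 1.16% to 1.51% of the other kept cells, values that do not overlap between these populations and that were chosen after the data were seen, so they carry no test.

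Gated cells within 20 units of an endothelial cell (3115) were compared with those farther away (7122). By edgeR's test against no difference, 28 of 134 genes were higher near endothelium (20.9%) and 47 lower (35.1%). Calls by distance did not require a level above the blanks. Library totals gave 48 higher and 35 lower, and without the coverslip block edgeR called 11 higher and 0 lower, with 12 lower at an unadjusted p under 0.05. Adgra2 had the lowest p among the higher genes (log2 1.43 ± 0.14 SE, adjusted p = 8.79e-21 by edgeR); with fewer than 10 astrocyte-list counts it was at 0.63 and not called (adjusted p = 0.0836 by edgeR). Cspg4 was 2.25-fold and Vim 2.27-fold higher near endothelium. Ligand genes Wnt5b and Wnt4 and the carrier gene Wls were higher by log2 differences of 1.27, 1.20 and 1.11. Slc1a3, Sox9, Sox2 and Wnt7a were lower, at log2 differences of -1.03, -1.15, -1.03 and -0.93.

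The mixture of members moved with this distance. The share with at least 10 astrocyte-list counts was 18.2% to 35.7% near endothelium and 41.6% to 69.4% farther away. Near cells held 10.6 to 11.5 counts of Pdgfrb and 1.27 to 1.5 of Cldn5, against 8.42 to 8.86 and 0.563 to 0.868 farther away. Their Pdgfra count was 0.377 to 0.542, against 0.297 to 0.397 farther away. The part of these in the gene differences was not tested as a whole. With at least 12 Pdgfrb counts, 18 of 132 genes were higher (13.6%) and 6 lower (4.55%), of which 12 and 6 were among those above. Cspg4 was then at 0.23 and not called. Wnt4, Trabd2b, Col4a6, Wnt5b and Vim were again called, at 1.11, 1.07, 0.95, 0.63 and 0.63. Over all members at 12 or more Pdgfrb counts, Col4a6 was read with 0.170, 0.0737, 0.136 and 0.159 counts per cell on coverslips 1 to 4. The highest blank stood at 0.122, 0.0772, 0.149 and 0.199 in those members, so Col4a6 exceeded it on coverslip 1 only. Wnt4, Trabd2b and Col4a6 were also called lower in gated than in Wnt5a-positive cells, of which 45.1% to 55.1% lay within 20 units of an endothelial cell. Whether cells like those were among the near members was not tested. The limit of fewer than 10 astrocyte-list counts was applied to the endothelial cells too, which left 23514 of 29785 to set near and far. With it, 6 of 134 genes were higher (4.48%) and 7 lower (5.22%), of which 5 and 7 were among those above. Trabd2b, Col4a6, Vim, Wnt5b and Sdc2 kept their calls there, and Adgra2, Wnt4, Wls and Cspg4 did not.

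Female and male gated cells were compared with 2 coverslips each. None of 134 genes was called (0.0%) by edgeR, 15 had an unadjusted p under 0.05, and DESeq2 called 8. The lowest p was that of Wif1, a secreted Wnt antagonist gene (log2 -1.14 ± 0.32 SE, female minus male, adjusted p = 0.39 by edgeR). A coverslip holds 1 sex, so sex and coverslip cannot be told apart beyond the spread of 2 against 2.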

How the data were processed

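MERFISH was run on 4 coverslips with a custom probe library and VGluT2 antibody staining, per the labels' protocols. The deposited values are raw counts of decoded transcripts per segmented cell, with no normalization per the file headers; the authors also deposited cell volume, centre and shape, measures whose unit is not given. The decoding and segmentation software is not stated in the labels or headers. The members and gene lists were chosen with earlier results of these data known. Python 3.11.15, numpy 2.4.6 and scipy 1.17.1 selected cells and summed counts; R 4.3.3 with edgeR 4.0.16 (quasi-likelihood, glmTreat against 2-fold for the comparisons of populations, coverslip as a block, log summed volume as offset; TMM for sex) tested them, adjusted over 134 genes. DESeq2 1.42.0, other scalings, other limits and leaving out each coverslip were alternatives. Populations of a coverslip come from the same sections, which is what pairs them. Genes named are those of the lists and, per direction, the 12 called genes of lowest p that moved the same way on every coverslip. On simulated sums with 40 genes changed 4-fold, all 40 were called in each comparison, with 0, 0, 4 and 2 unchanged genes called against endothelial cells, against Wnt5a-positive cells, by sex and by distance. Those sums had an assumed dispersion that was not taken from the data, and the blank rule was not applied to them. They therefore give no error rate for the real comparisons. Distances were tested by exact sign-flip permutation. Coverslips are the replicates, but nothing says that animals were not shared between them, so p-values measure spread over coverslips and not over animals. Where coverslip is a block, that is the spread of the difference within a coverslip. Tissue edge was the centre of the nearest square of side 100 with fewer than 4 cells.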

Additional observations from a re-analysis of the deposited data

Results flagged for a closer look

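In 59 sets of 4 coverslip values, 4 had 1 coverslip far from the others, given as its gap to the nearest coverslip divided by the whole range; chance flags about 1 in 20 such sets. For Cspg4, gated against endothelial cells, the ratio was 0.889, and coverslip 2 was highest at a log2 difference of 3.64. For differences near against far from endothelium the ratios were 0.908 for Wls, 0.83 for Trabd2b and 0.986 for Wnt7a.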

How the results depend on the processing

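For the genes higher in gated than in endothelial cells (27), the count was 12 at 12 or more Pdgfrb counts. It was 11 below an astrocyte-list count of 10, 18 with gates on thinned counts (12 of them among the 27) and 54 when tested against no difference. For those lower (8) it was 13 with TMM factors, 14 with library totals, 6 with thinned gates (all among the 8) and 19 against no difference. Against Wnt5a-positive cells (0 higher, 19 lower), DESeq2 gave 2 and 10, and TMM factors 4 and 12. Gates on thinned counts gave 2 and 8, with 7 of the 8 among the 19. The test against no difference gave 27 and 57. Library totals there gave 1 higher, 12 or more Pdgfrb counts gave 11 lower, and no replicate block gave 10 lower. For sex (0), DESeq2 called 8 genes and library totals 1. For distance to endothelium (75 in all), 24 were called at 12 or more Pdgfrb counts, 13 below an astrocyte-list count of 10 and 11 with no replicate block. Leaving out 1 coverslip gave 24 to 29 higher and 7 to 9 lower against endothelium, 0 to 1 higher and 17 to 20 lower against Wnt5a-positive cells, 0 to 0 by sex and 57 to 78 by distance. By sex this sets 1 coverslip against 2 and assumes that the lone coverslip varies like the others, so it says nothing about stability. Without 1 coverslip the distance to endothelium differed by -13.5 to -8.86 units and that to the edge by -20.8 to 155; the edge difference was -114 below an astrocyte-list count of 10. The share of kept cells (1.29%) was 0.696% at 6 or more Pdgfrb counts, 0.743% with Cldn5 at 0, 0.847% with thinned gates, 0.326% at 12 or more Pdgfrb counts and 0.665% below an astrocyte-list count of 10.

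Of 848 values of 56 named differences under alternatives, 752 kept direction and call, 82 kept direction without the call and 14 turned. At 12 or more Pdgfrb counts, differences from endothelial cells turned to -0.091 for Wnt7a, -0.18 for Slc1a3, -0.63 for Gpc5, -0.21 for Sox2 and -0.43 for Sox9, and Sox9 was at -0.29 below an astrocyte-list count of 10. Near against far, Gpc5 turned to 0.083, Wnt7a to 0.095 and Fzd9 to 0.021 at 12 or more Pdgfrb counts. Below an astrocyte-list count of 10, Gpc5 turned to 0.013, Slc1a3 to 0.25, Aldh1l1 to 0.15, Aldoc to 0.072 and Fzd9 to 0.0044. Slc1a3, Aldh1l1 and Sox9 are on the list whose sum sets this limit, so the selection itself bears on their values there. Otherwise the cause was not tested. Cells of the thinned gates had at least 100 counts. The limits are raw counts, and depth differed between coverslips.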
